A study of Homo sapiens with 42 samples.

Results

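The comparison concerns untreated head and neck squamous cell carcinoma lines that carry human papillomavirus (HPV) and lines that do not. It rests on 18 control arrays out of 42 in the series. HPV-positive cells are represented by SCC047, SCC090 and 93VU147T, and HPV-negative cells by SCC25, SQ20B and SCC61, with 3 control arrays for each line. The labels describe the control arrays as receiving no treatment, and the methods name PBS as the control. No transgene, knockout or drug distinguishes the groups, and each line comes from 1 tumour, so HPV status cannot be told apart from other differences between these tumours. HPV status follows the study's own description of the lines, since the labels do not give it, and no viral transcript was analysed here. Expression was measured on Affymetrix hgu133plus2.0 arrays and is given as deposited, in log2 units per probe set. Over genes and lines the median value was 6.16 and the 10th and 90th percentiles were 3.79 and 9.55, so a value below about 4 is called the floor of the scale here.

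High-risk HPV drives squamous carcinomas of the oropharynx through its oncoproteins. E7 binds RB and releases E2F transcription factors, which switch on genes for entry into S phase, and E6 directs the degradation of p53. Cells that have lost RB function usually express p16, the product of CDKN2A, at high levels, and p16 is therefore used as a surrogate of HPV status in tumours. HPV-negative tumours more often lose CDKN2A and activate cyclin D and CDK kinases or EGFR by other routes.

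Each of the 19775 genes was read from its brightest probe set (by the mean of all 42 arrays), and each line entered as the mean of its 3 arrays. A gene was said to lie apart when all 3 HPV-positive lines were above, or all below, all 3 HPV-negative lines. The gap is the distance between the nearest lines of the 2 groups. Throughout, values of the HPV-positive lines are given in the order SCC047, SCC090 and 93VU147T, those of the HPV-negative lines in the order SCC25, SQ20B and SCC61, and differences are HPV-positive minus HPV-negative on the log2 scale. In all, 1544 genes were higher in all HPV-positive lines (7.81% of genes) and 1298 were lower (6.56%). A gap of at least 0.5 was found for 245 of the higher genes (1.24% of all genes) and 140 of the lower genes (0.708%). The median gap was 0.12, and 1316 of the 2842 apart genes had a gap under 0.1. At the boundary, the cytokine IL24 lay just inside, at 4.45, 4.14 and 4.24 in the HPV-positive lines, against 4.46, 7.12 and 7.43 in the HPV-negative lines. PCNA, the sliding clamp of DNA polymerases, lay just outside, at 11.53, 12.06 and 11.56 in the HPV-positive lines, against 11.42, 11.53 and 9.61 in the HPV-negative lines. When single arrays were required to separate, 636 genes had all 9 HPV-positive arrays above all 9 HPV-negative arrays (3.22%) and 335 had them below (1.69%).

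The lines within an HPV group differed from each other about as much as the groups did. Arrays of the same line correlated at 0.991 to 0.998 across genes, arrays of other lines of the same HPV group at a median of 0.938 and arrays from the other HPV group at a median of 0.923. Genes are not independent replicates in these correlations. SCC090 stood apart from the rest, with correlations of line means from 0.89 to 0.91. Without SCC090, 3612 genes were higher in both other HPV-positive lines and 2388 were lower. The median SD was 0.13 between arrays of a line and 0.31 between lines of a group. On line means, limma with Benjamini-Hochberg adjustment over all genes called 1 gene higher (0.00506%) and 2 genes lower (0.0101%) in HPV-positive lines, while 1007 (5.09%) and 634 genes (3.21%) had an unadjusted p under 0.05. With the 18 arrays as data and the line as a random block, limma called 564 higher and 335 lower. That fit uses a common correlation of arrays within a line for all genes (0.83). Arrays thus add to its precision although HPV status varies only between lines.

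The 3 genes that passed the test were MRC2, DNER and TFPI. MRC2, an endocytic receptor that takes up collagen, was 9.38, 9.29 and 9.29 in the HPV-positive lines, against 7.13, 6.90 and 6.92 in the HPV-negative lines. The lowest, median and highest values of single arrays were 9.01, 9.37 and 9.70 over the 9 HPV-positive arrays, against 6.69, 7.00 and 7.17 over the 9 HPV-negative arrays. The HPV-positive mean was 5.05-fold higher (log2 difference 2.33, SE 0.11, limma adjusted p = 0.0169), and the spread within each group was far smaller than the gap of 2.16. DNER, a non-canonical Notch ligand best known from neurons, was 3.65, 3.82 and 3.70 in the HPV-positive lines, against 8.01, 8.08 and 8.54 in the HPV-negative lines. Single arrays had a lowest, median and highest value of 3.56, 3.71 and 3.85 over the 9 HPV-positive arrays, against 7.88, 8.11 and 8.82 over the 9 HPV-negative arrays. DNER was lower in HPV-positive lines (log2 difference -4.48, SE 0.17, limma adjusted p = 0.0153) and had the widest gap of any gene, 4.18. TFPI, the inhibitor of the tissue factor pathway of coagulation, was 3.71, 3.50 and 3.92 in the HPV-positive lines, against 8.45, 8.05 and 7.80 in the HPV-negative lines. For single arrays these values were 3.44, 3.65 and 3.96 over the 9 HPV-positive arrays, against 7.67, 8.22 and 8.52 over the 9 HPV-negative arrays. TFPI was lower in HPV-positive lines (log2 difference -4.39, SE 0.21, limma adjusted p = 0.0169), and all 5 of its probe sets lay apart in the same direction. The dimmest of these was at the floor in every line, at 3.35, 3.41 and 3.50 in HPV-positive lines and 3.77, 3.68 and 3.52 in HPV-negative lines. DNER and TFPI were at the floor of the scale in all 3 HPV-positive lines, so their measured differences are lower bounds on the size of the change, as are those of other genes at the floor in one group.

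**Figure D1:**
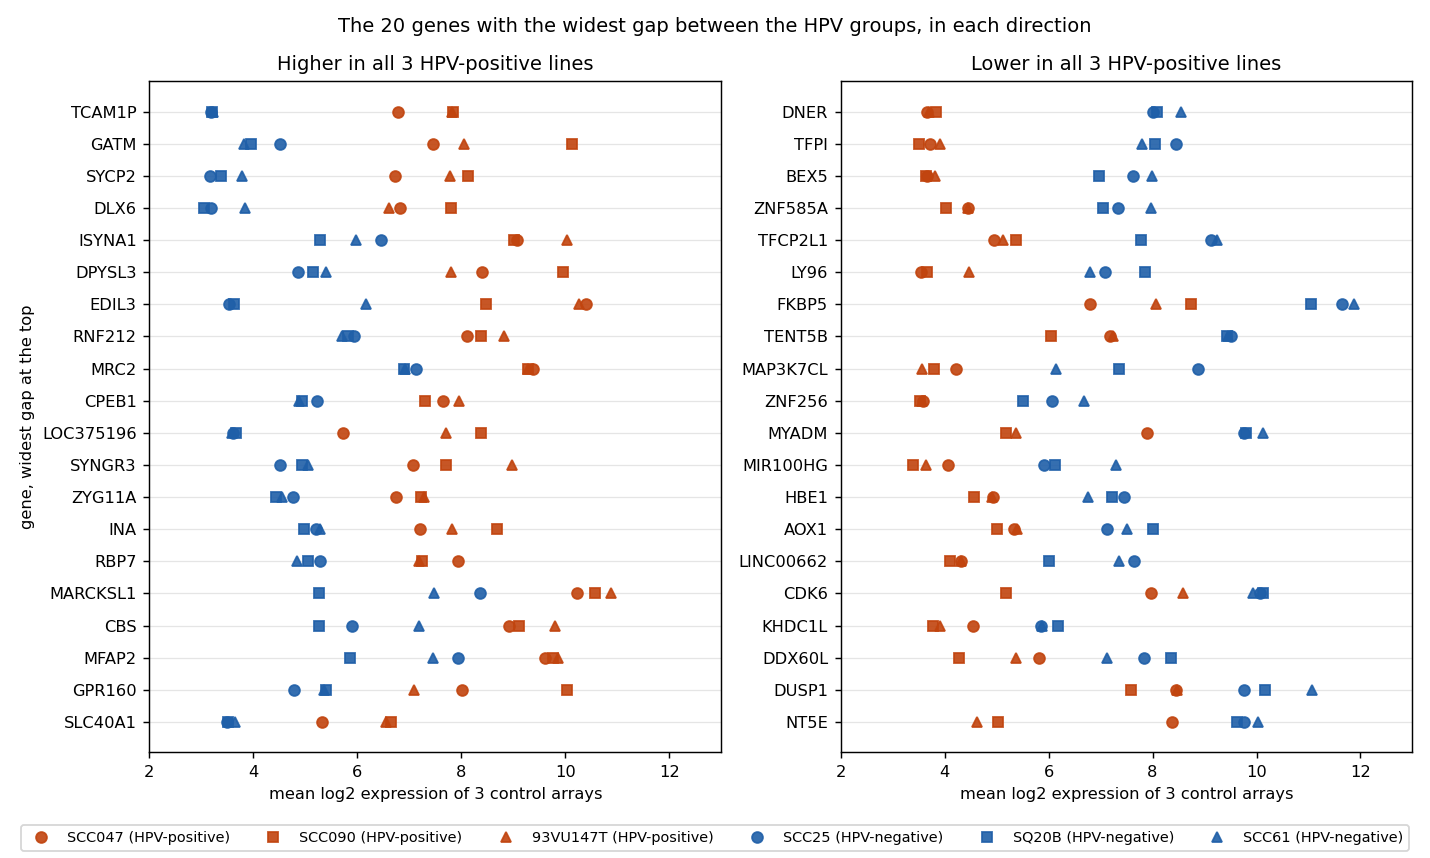
Line means of log2 expression (x axis) for the 20 genes per direction with the widest gap between groups (rows), with HPV-positive lines in orange and HPV-negative lines in blue. TCAM1P heads the genes that were higher in HPV-positive lines, with a gap of 3.55, and DNER heads those that were lower, with a gap of 4.18.

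CDKN2A served as a check on the grouping. It was 11.59, 10.91 and 12.09 in the HPV-positive lines, against 5.88, 6.89 and 9.95 in the HPV-negative lines, so the groups did not overlap and the gap was 0.97. The lowest, median and highest arrays were 10.67, 11.60 and 12.16 over the 9 HPV-positive arrays, against 5.84, 6.95 and 10.05 over the 9 HPV-negative arrays. SCC61 was the highest of the HPV-negative lines and SCC25 the lowest. The means were 11.53 ± 0.59 in the HPV-positive lines and 7.57 ± 2.12 in the HPV-negative lines (SD, n = 3 lines each), a difference of 3.96 (SE 1.10) or 15.6-fold. It did not pass the test on line means (limma adjusted p = 0.452), and the exact two-sided permutation test over the 6 lines gave p = 0.1, the smallest that 3 against 3 allows. A second probe set of CDKN2A was 9.41, 9.56 and 10.76 in HPV-positive lines and 3.59, 7.12 and 8.41 in HPV-negative lines, which is also apart. The dimmest of the 3 probe sets overlapped, at 5.30, 5.21 and 5.30 in HPV-positive lines and 5.07, 5.23 and 5.20 in HPV-negative lines.

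Genes of the RB and CDK pathway were split. Of 28 measured, 6 were higher in all HPV-positive lines and 3 were lower (all genes, 7.81% and 6.56%), and the median difference was 0.26, against 0.01 over all genes. Without SCC61 this median was 0.16. None was called by limma. CDK6, a kinase that phosphorylates RB and that p16 inhibits, was 7.98, 5.19 and 8.59 in the HPV-positive lines, against 10.07, 10.12 and 9.93 in the HPV-negative lines. The HPV-negative lines were nearly equal, while SCC090 was more than 4 log2 units below them, and all 7 CDK6 probe sets lay apart in this direction (difference -2.79, SE 0.91, limma adjusted p = 0.53). CCND2, a D-type cyclin that activates CDK6, was 7.96, 3.88 and 8.05 in the HPV-positive lines, against 8.20, 11.85 and 10.58 in the HPV-negative lines, with SCC047 and 93VU147T close below SCC25. CCNA2, the cyclin of S phase and mitosis, was 8.73, 8.79 and 8.37 in the HPV-positive lines, against 9.16, 9.21 and 9.35 in the HPV-negative lines. In the other direction, CCNE1, the cyclin that drives S phase entry through CDK2, was 8.08, 8.01 and 7.83 in the HPV-positive lines, against 6.35, 7.63 and 6.20 in the HPV-negative lines, although its second probe set lay apart the other way. E2F5, a factor of the repressive branch of the family, was 8.02, 6.38 and 7.21 in the HPV-positive lines, against 4.01, 4.26 and 6.33 in the HPV-negative lines. E2F6, a repressor of E2F sites, was 8.52, 9.25 and 8.60 in the HPV-positive lines, against 7.86, 7.08 and 8.14 in the HPV-negative lines. E2F1, the activating factor released from RB, had a difference of 0.75 and a gap of 0.13. RB1 itself overlapped between the groups, at 9.09, 9.30 and 8.51 in the HPV-positive lines, against 9.63, 9.40 and 8.84 in the HPV-negative lines. CCND1, the cyclin often amplified in HPV-negative tumours, also overlapped, at 8.40, 5.32 and 9.81 in the HPV-positive lines, against 10.29, 8.77 and 8.60 in the HPV-negative lines. It was lowest in SCC090 and highest in SCC25.

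Differences were mostly positive for genes of DNA replication and mostly negative for mitotic genes. Of 45 replication genes measured, 42 had a positive difference and 11 lay apart, all higher, with a median difference of 0.67. Over all 19775 genes, 10193 had a positive difference and 7.81% lay apart as higher. MCM3, a subunit of the replicative helicase, was 9.70, 10.45 and 10.73 in the HPV-positive lines, against 9.10, 9.49 and 7.19 in the HPV-negative lines. MCM6, another subunit of this helicase, was 10.61, 11.27 and 10.88 in the HPV-positive lines, against 10.21, 10.27 and 8.79 in the HPV-negative lines. MCM5, a further subunit, was 10.40, 10.36 and 10.02 in the HPV-positive lines, against 9.70, 9.73 and 8.02 in the HPV-negative lines. RPA2, which coats single-stranded DNA at forks, was 9.44, 10.51 and 10.53 in the HPV-positive lines, against 9.23, 9.31 and 8.53 in the HPV-negative lines. SCC61 was the lowest line for these 4 genes. The other 7 apart genes were MCM2, GINS4, CDT1, TIMELESS, LIG1, POLD1 and TK1. The mean level of the whole list was 9.17, 9.59 and 9.40 in the HPV-positive lines, against 8.92, 9.38 and 7.79 in the HPV-negative lines. SQ20B thus overlapped with the HPV-positive lines over the list, and the median difference was 0.28 without SCC61 and 1.07 without SQ20B. None of the 45 was called by limma (MCM3 difference 1.70, SE 0.67, adjusted p = 0.6). Of 26 mitotic genes, 21 had a negative difference, 3 lay apart as lower and 1 as higher, and the median was -0.36. Over all 19775 genes, 9582 had a negative difference and 6.56% lay apart as lower. BUB1, a kinase of the spindle checkpoint, was 8.57, 9.02 and 7.86 in the HPV-positive lines, against 9.07, 9.37 and 9.31 in the HPV-negative lines. AURKA, the kinase of spindle poles, had a difference of -0.62 and a gap of 0.08, and MAD2L1, another checkpoint protein, one of -0.52 with a gap of 0.28. CDC25C, a phosphatase that activates the mitotic kinase, was the one higher gene (difference 0.48, gap 0.14), although its difference turned negative with another probe set. The mitotic median was -0.049 without 93VU147T, -0.20 without SQ20B and -0.55 without SCC090.

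**Figure D2:**
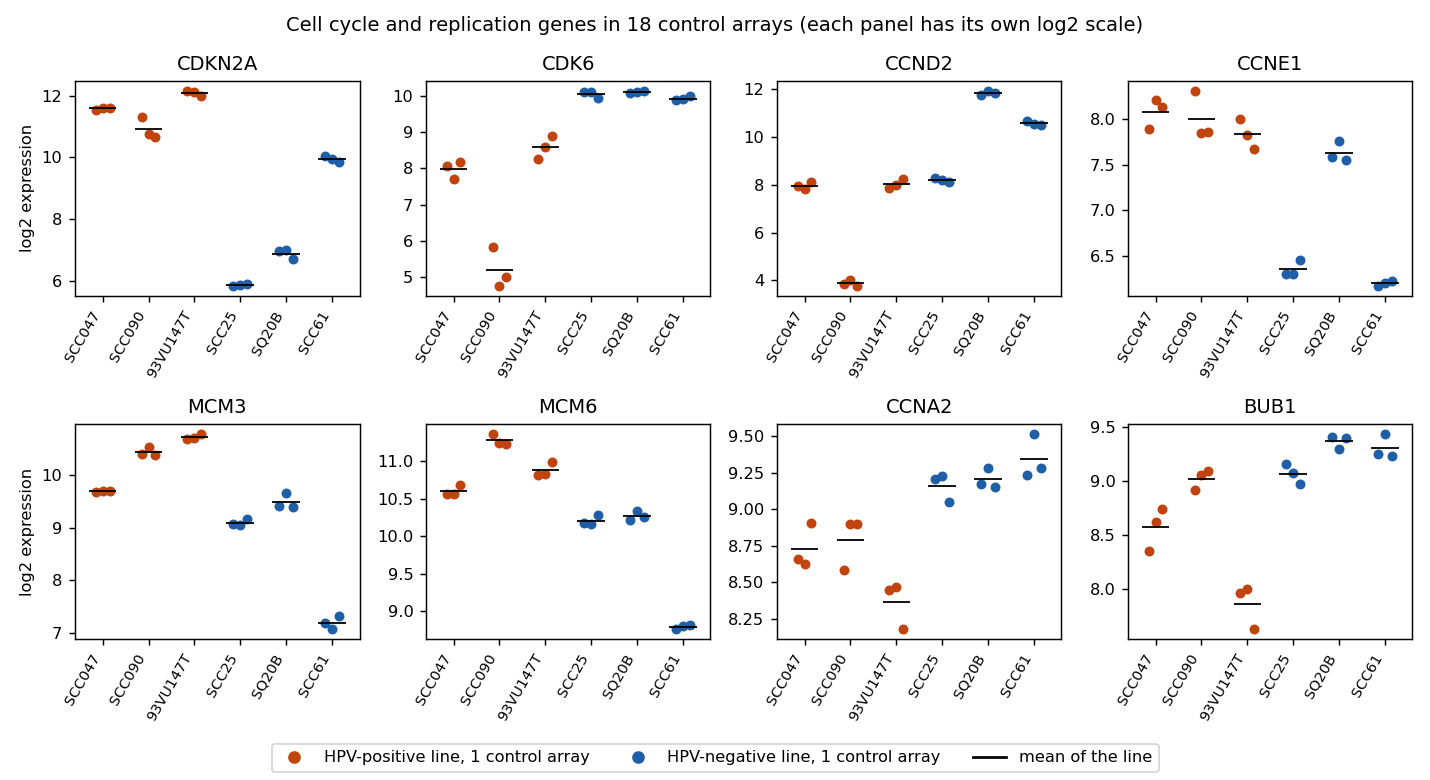
Log2 expression of 8 cell cycle and replication genes (y axis, 1 scale per panel) in the 18 control arrays, with points for arrays, bars for line means and HPV-positive lines (orange) left of HPV-negative lines (blue). CDKN2A, CCNE1, MCM3 and MCM6 were higher and CDK6, CCND2, CCNA2 and BUB1 lower in all HPV-positive lines, and SCC61 was far below the other lines for MCM3 and MCM6.

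E2F factors bind sites in the promoters of many replication genes, and promoters were therefore read for their motif. The motifs searched were TTTCCCGC, TTTCGCGC, TTTGCCGC and TTTGGCGC on both strands, in the 300 bases from 250 before to 50 after each RefSeq start (GRCh38.p14). Such a motif was in 3.31% of all promoters of this length and in at least 1 promoter of 5.36% of the measured genes with a promoter listed. Of 39 replication genes with a promoter listed, 22 had one (56.4%). The share was 5 of 8 (62.5%) for the members that lay apart and 17 of 31 (54.8%) for those that did not, so the motif was about as frequent in both. It was in 6.33% of all genes higher in HPV-positive lines and 3.34% of all genes lower in them. A match is a description of letters and not a site of binding. The 60 bases around the first match are shown for the apart members of the replication, RB and CDK, and meiosis lists, with the motif in capitals, to show where it lies. The windows read 5′ to 3′ on the strand of the gene.
MCM2 (chr3:127598387-127598446, plus strand): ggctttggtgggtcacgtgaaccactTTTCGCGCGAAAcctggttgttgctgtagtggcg
MCM3 (chr6:52284883-52284942, minus strand): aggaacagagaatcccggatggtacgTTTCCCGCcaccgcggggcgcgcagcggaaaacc
MCM6 (chr2:135876562-135876621, minus strand): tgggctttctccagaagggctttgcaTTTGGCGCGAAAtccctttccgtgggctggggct
CDT1 (chr16:88803728-88803787, plus strand): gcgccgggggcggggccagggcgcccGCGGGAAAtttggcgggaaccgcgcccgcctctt
LIG1 (chr19:48170425-48170484, minus strand): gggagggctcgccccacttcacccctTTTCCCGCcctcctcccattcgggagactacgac
E2F1 (chr20:33686385-33686444, minus strand): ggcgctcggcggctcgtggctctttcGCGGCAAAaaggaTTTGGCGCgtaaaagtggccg
SYCE2 (chr19:12919244-12919303, minus strand): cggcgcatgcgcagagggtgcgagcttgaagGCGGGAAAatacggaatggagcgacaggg
MEI1 (chr22:41699473-41699532, plus strand): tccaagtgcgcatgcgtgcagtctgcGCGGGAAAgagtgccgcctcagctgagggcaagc
MCM2 and MCM6 hold 2 overlapping matches on opposite strands within the window, and E2F1 holds 2 that are separated by 5 bases. Except for MCM6, given above, the differences of these genes were 1.09 for MCM2, 1.70 for MCM3, 1.06 for CDT1, 0.99 for LIG1, 0.75 for E2F1, 1.61 for SYCE2 and 1.23 for MEI1.

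Several genes of meiosis and the germline, which are normally silent in squamous epithelium, were expressed in HPV-positive lines. Of 29 measured, 8 were higher in all HPV-positive lines and 3 were lower (all genes, 7.81% and 6.56%), with a median difference of 0.14, or 0.21 without SQ20B. The list was chosen with earlier results of these data known, so these shares are a description and not a test. ZFR2 and RIBC2 are counted among the 8, and their role in the germline was not examined here. TCAM1P, the pseudogene of a testicular cell adhesion molecule, was 6.78, 7.84 and 7.82 in the HPV-positive lines, against 3.19, 3.21 and 3.23 in the HPV-negative lines, and no HPV-negative line was above the floor (difference 4.27, SE 0.31, limma adjusted p = 0.0813). SYCP2, a lateral element protein of the synaptonemal complex, was 6.73, 8.13 and 7.79 in the HPV-positive lines, against 3.16, 3.38 and 3.78 in the HPV-negative lines (difference 4.11, SE 0.41, limma adjusted p = 0.156). SYCE2, of the central element of the same complex, averaged 7.27 ± 0.75 in the HPV-positive lines and 5.66 ± 0.47 in the HPV-negative lines (SD, n = 3 lines each), without overlap. RNF212, a ring finger protein of meiotic crossovers that was not in the list, was 8.12, 8.39 and 8.82 in the HPV-positive lines, against 5.93, 5.82 and 5.71 in the HPV-negative lines (limma adjusted p = 0.0813). ZFR2 was 4.65, 9.15 and 8.26 in the HPV-positive lines, against 4.44, 4.61 and 4.59 in the HPV-negative lines, so SCC047 barely cleared the HPV-negative lines, and with its second probe set the difference was slightly negative. RIBC2, MEI1, TAF7L and SMC1B also lay apart as higher, with differences of 1.52, 1.23, 1.07 and 0.46. DDX4, PIWIL1 and TEX14 lay apart as lower with differences of -0.15, -0.07 and -0.21, all at levels under 5 in every line. The mean level of the list was 5.02, 5.41 and 5.22 in HPV-positive lines and 4.48, 4.26 and 4.41 in HPV-negative lines, without overlap. Cancer-testis antigens did not follow: of 17, none was higher and 2 lay apart as lower, MAGEB2 and MAGEA11. SQ20B alone was above the floor for MAGEB2 (3.85, 3.82 and 3.59 in the HPV-positive lines, against 3.94, 8.11 and 3.89 in the HPV-negative lines), and MAGEA11 was at the floor in every line (difference -0.28).

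The other genes with the widest gaps among those higher in HPV-positive lines had varied roles. GATM, an enzyme of creatine synthesis, was 7.46, 10.13 and 8.05 in the HPV-positive lines, against 4.51, 3.96 and 3.82 in the HPV-negative lines, and 2 of its 8 probe sets lay apart. DLX6, a homeobox factor of craniofacial development, was 6.82, 7.80 and 6.61 in the HPV-positive lines, against 3.19, 3.05 and 3.83 in the HPV-negative lines, with all 3 probe sets apart. EDIL3, a secreted integrin ligand, was 10.40, 8.48 and 10.27 in the HPV-positive lines, against 3.53, 3.62 and 6.17 in the HPV-negative lines. Its difference was the largest among the 20 genes, 5.28 (SE 0.92, limma adjusted p = 0.249), with SCC61 at an intermediate level. Some are best known from neurons. DPYSL3, which acts in axon guidance, was 8.40, 9.95 and 7.80 in the HPV-positive lines, against 4.87, 5.16 and 5.41 in the HPV-negative lines. INA, a neuronal intermediate filament, was 7.20, 8.69 and 7.83 in the HPV-positive lines, against 5.20, 4.97 and 5.29 in the HPV-negative lines. SYNGR3, a synaptic vesicle protein, was 7.06, 7.71 and 8.98 in the HPV-positive lines, against 4.51, 4.95 and 5.06 in the HPV-negative lines. CBS, which makes cystathionine from homocysteine, was 8.92, 9.11 and 9.79 in the HPV-positive lines, against 5.90, 5.27 and 7.19 in the HPV-negative lines. SLC40A1, the iron exporter ferroportin, was 5.33, 6.65 and 6.55 in the HPV-positive lines, against 3.49, 3.51 and 3.65 in the HPV-negative lines. RBP7, a retinol-binding protein, was 7.93, 7.24 and 7.18 in the HPV-positive lines, against 5.29, 5.05 and 4.84 in the HPV-negative lines. For the remaining 6, CPEB1, ZYG11A, LOC375196, MARCKSL1, MFAP2 and GPR160, differences ranged between 2.50 for ZYG11A and 3.64 for LOC375196. ISYNA1, an enzyme of inositol synthesis, was 9.08, 9.02 and 10.04 in the HPV-positive lines, against 6.45, 5.28 and 5.98 in the HPV-negative lines with its brightest probe set, but another of its 4 probe sets lay apart the other way. Of the 20 genes only MRC2 passed the adjusted test, and TCAM1P, RNF212, CPEB1 and ZYG11A came nearest to it (limma adjusted p = 0.0813 for each).

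Among the genes lower in HPV-positive lines, many were at or near the floor in all 3 of them. BEX5 was 3.66, 3.65 and 3.81 in the HPV-positive lines, against 7.63, 6.98 and 7.99 in the HPV-negative lines (limma adjusted p = 0.0813). TFCP2L1, a transcription factor of the grainyhead-related family, was 4.95, 5.37 and 5.13 in the HPV-positive lines, against 9.13, 7.78 and 9.24 in the HPV-negative lines. LY96, the co-receptor that lets TLR4 recognise lipopolysaccharide, was 3.55, 3.65 and 4.47 in the HPV-positive lines, against 7.08, 7.85 and 6.80 in the HPV-negative lines. FKBP5, a chaperone of the glucocorticoid receptor, was 6.80, 8.73 and 8.06 in the HPV-positive lines, against 11.64, 11.05 and 11.87 in the HPV-negative lines, a gap of 2.32 between bright levels. AOX1, an aldehyde oxidase, was 5.34, 5.02 and 5.38 in the HPV-positive lines, against 7.12, 8.01 and 7.50 in the HPV-negative lines. HBE1, the embryonic globin gene, was 4.93, 4.56 and 4.92 in the HPV-positive lines, against 7.45, 7.23 and 6.77 in the HPV-negative lines. NT5E, the ectoenzyme CD73 that makes adenosine, was 8.37, 5.02 and 4.62 in the HPV-positive lines, against 9.76, 9.63 and 10.04 in the HPV-negative lines, so SCC047 lay much nearer to the HPV-negative lines than the other two. MYADM had the same layout, at 7.88, 5.18 and 5.37 in the HPV-positive lines, against 9.76, 9.80 and 10.13 in the HPV-negative lines. DUSP1, a phosphatase that switches off MAP kinases, was 8.45, 7.59 and 8.47 in the HPV-positive lines, against 9.76, 10.16 and 11.07 in the HPV-negative lines. Differences of TENT5B, MAP3K7CL, LINC00662, KHDC1L, DDX60L, ZNF585A and ZNF256 ranged between -3.60 for MAP3K7CL and -1.89 for KHDC1L.

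MIR100HG, a long non-coding transcript that hosts microRNAs, was also in this set. It was 4.07, 3.39 and 3.64 in the HPV-positive lines, against 5.92, 6.13 and 7.29 in the HPV-negative lines, a difference of -2.74 (SE 0.41, limma adjusted p = 0.216), and 1 of its 2 probe sets lay apart. The array measured the host transcript and not the mature microRNAs. In the RefSeq annotation 7 mature microRNAs lie within this gene on chromosome 11. The 5′ strands of 3 of its hairpins are shown because they name what the transcript carries, with the seed (bases 2 to 8) in capitals (GRCh38.p14).
hsa-miR-100-5p (chr11:122152275-122152296, minus strand): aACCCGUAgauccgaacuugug
hsa-let-7a-5p (chr11:122146568-122146589, minus strand): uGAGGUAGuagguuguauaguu
hsa-miR-125b-5p (chr11:122099809-122099830, minus strand): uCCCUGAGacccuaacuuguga
The 3 seeds differ from each other, so these microRNAs belong to 3 seed families.

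The EGFR family and its ligands were unequal between the groups. Of 12 measured, 4 were lower and 2 higher in all HPV-positive lines, with a median of -0.48 (all genes, 7.81% higher and 6.56% lower). The median was -0.086 without SCC090, -0.32 without SQ20B and -0.21 without SCC61. EGFR was 10.95, 9.39 and 10.90 in the HPV-positive lines, against 11.23, 12.91 and 12.04 in the HPV-negative lines, a difference of -1.65 (SE 0.61, limma adjusted p = 0.577). SQ20B was the highest and SCC090 the lowest, SCC25 lay only 0.28 above SCC047, and 1 of 9 EGFR probe sets lay apart. EREG, the ligand epiregulin, was 3.17, 3.17 and 3.26 in the HPV-positive lines, against 6.38, 4.42 and 8.66 in the HPV-negative lines, so all 3 HPV-positive lines were at the floor. HBEGF, another ligand, was 7.03, 6.91 and 6.40 in the HPV-positive lines, against 7.20, 7.23 and 8.74 in the HPV-negative lines. ERRFI1, an inhibitor of EGFR that its own signalling induces, was 9.78, 8.12 and 9.80 in the HPV-positive lines, against 10.29, 10.98 and 11.48 in the HPV-negative lines. In the other direction, ERBB3, the kinase-impaired partner receptor, was 8.80, 9.15 and 9.18 in the HPV-positive lines, against 7.90, 8.27 and 6.93 in the HPV-negative lines, with 3 of 5 probe sets apart in this direction and 1 in the other. ERBB2, the partner receptor without a ligand, was 8.83, 8.76 and 8.26 in the HPV-positive lines, against 7.82, 7.79 and 8.08 in the HPV-negative lines. Of 18 genes that report ERK output, 3 were lower and none higher. The median of -0.11 had no stable sign, since it was 0.0044 without SCC047, -0.031 without SCC61, -0.065 without 93VU147T, -0.25 without SCC25 and -0.27 without SCC090. PHLDA1, which ERK signalling induces, was 9.51, 7.26 and 9.91 in the HPV-positive lines, against 10.90, 10.51 and 10.48 in the HPV-negative lines, with all 6 probe sets apart. DUSP5, an ERK phosphatase, was 7.13, 5.00 and 7.87 in the HPV-positive lines, against 7.96, 9.59 and 9.08 in the HPV-negative lines. SPRY4, a feedback inhibitor, was 5.75, 5.80 and 5.55 in the HPV-positive lines, against 6.32, 6.04 and 6.68 in the HPV-negative lines, and this difference was not seen in the treated arrays. SCC090 was the lowest line for EGFR, ERRFI1, PHLDA1 and DUSP5. Other growth factor receptors gave 3 of 19 higher (FGFR2, FGFR4 and EPHB4, differences 1.39, 0.92 and 0.69) and 1 lower, MET (8.96, 10.02 and 9.93 in the HPV-positive lines, against 10.72, 10.58 and 10.31 in the HPV-negative lines). For FGFR2, 3 of 11 probe sets lay apart in this direction and 1 in the other. Of the AP-2 family, TFAP2A overlapped (10.28, 8.63 and 9.52 in the HPV-positive lines, against 9.99, 9.07 and 11.34 in the HPV-negative lines), and of 5 measured only TFAP2B lay apart, near the floor in every line (difference 0.19).

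Differences were mostly positive for genes of epithelial junctions and mostly negative for genes of the basal layer. Of 23 epithelial junction genes, 5 were higher and none lower, 19 had a positive difference, and the median was 0.60, while of all 19775 genes 7.81% were higher, 6.56% were lower and 10193 had a positive difference. The mean level of this list was 8.69, 8.53 and 8.27 in HPV-positive lines, against 7.77, 7.83 and 8.09 in HPV-negative lines. CLDN7, a tight junction claudin, was 10.32, 9.24 and 10.52 in the HPV-positive lines, against 7.75, 8.87 and 8.40 in the HPV-negative lines. CLDN4, another claudin, was 7.81, 6.75 and 7.26 in the HPV-positive lines, against 4.74, 5.83 and 6.55 in the HPV-negative lines. CRB3, of the apical polarity complex, and SPINT2, a membrane protease inhibitor, had differences of 0.67 and 0.66. Of 25 mesenchymal genes, 4 were lower and 1 higher (median -0.36). The median was -0.078 without SCC25, -0.19 without SCC090 and -0.83 without SQ20B. LOX, which cross-links collagen, was 4.79, 4.53 and 5.49 in the HPV-positive lines, against 11.14, 5.73 and 9.60 in the HPV-negative lines. COL5A2, a fibrillar collagen, was 5.27, 3.84 and 4.20 in the HPV-positive lines, against 9.19, 7.60 and 5.94 in the HPV-negative lines. SNAI2 and ZEB1, repressors of epithelial genes, had differences of -1.05 and -0.36, and ZEB2, the higher one, was at the floor throughout (difference 0.06). For ZEB1 and ZEB2 the sign turned in treated arrays. Of 12 genes of the basal layer and hemidesmosomes, 11 had a negative difference and 2 lay apart. The median of -0.57 was -0.17 without SCC25, -0.27 without SCC090, -0.31 without SCC61 and -0.73 without SQ20B. The mean level of this list overlapped, at 10.43, 9.25 and 9.61 in HPV-positive lines, against 10.80, 9.16 and 10.73 in HPV-negative lines. ITGB1, an integrin subunit of many matrix receptors, was 11.64, 11.49 and 12.03 in the HPV-positive lines, against 12.76, 12.12 and 12.25 in the HPV-negative lines. PLEC, which links keratin filaments to hemidesmosomes, was 8.03, 8.38 and 8.08 in the HPV-positive lines, against 9.08, 8.98 and 8.67 in the HPV-negative lines. Of 27 differentiation genes 4 were higher and none lower, and 1 of the 4 was also higher in treated arrays. In the whole list 16 differences were positive and 11 negative. The median of 0.063 had no stable sign, since it was -0.25 without SQ20B, -0.088 without SCC047 and 0.22 without 93VU147T. The mean level of this list overlapped, at 6.76, 6.44 and 5.71 in HPV-positive lines, against 6.50, 5.13 and 6.66 in HPV-negative lines. KRT4, a keratin of mucosal epithelium, was 7.49, 7.79 and 7.02 in the HPV-positive lines, against 6.27, 5.18 and 6.03 in the HPV-negative lines. CNFN, a protein of the cornified envelope, was 5.65, 7.99 and 5.82 in the HPV-positive lines, against 5.04, 5.13 and 5.31 in the HPV-negative lines. CALML5 and CRNN, both of late differentiation, were below 6 in every line, with differences of 0.60 and 0.22. The simple keratin KRT7 was 6.95, 4.64 and 7.45 in the HPV-positive lines, against 9.03, 7.74 and 7.52 in the HPV-negative lines, and 1 of 7 genes of that list lay apart. Squamous markers were present but variable, and none of 7 lay apart. KRT14, a keratin of basal squamous cells, was 13.66, 5.77 and 7.05 in the HPV-positive lines, against 14.20, 4.85 and 12.21 in the HPV-negative lines, so SCC090, 93VU147T and SQ20B were low in a marker that defines the tissue. PKP1, a desmosomal plakophilin, was 9.45, 10.92 and 8.73 in the HPV-positive lines, against 10.10, 5.67 and 9.51 in the HPV-negative lines. For markers of other cell types the list means were below 6.16, the median over genes and lines, in every line. Single members could lie above it, such as FAP at 6.48 in SCC61. The mean level of 9 fibroblast markers was 4.82 to 5.48 in HPV-positive lines and 4.68 to 6.04 in HPV-negative lines. For 7 leukocyte markers it was 4.78 to 5.65 in HPV-positive lines and 5.09 to 5.32 in HPV-negative lines, and for 7 endothelial markers 5.04 to 5.28 in HPV-positive lines and 5.02 to 5.06 in HPV-negative lines. Their part in the differences was not tested. FAP and THY1 lay apart as lower, ITGAM as lower and VWF as higher, each at a level under 7 in every line, and the signs of THY1 and ITGAM turned in treated arrays. In the list of 18 matrix proteases, MMP2 was higher (10.40, 7.63 and 7.96 in the HPV-positive lines, against 7.51, 5.23 and 6.16 in the HPV-negative lines).

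**Figure D3:**
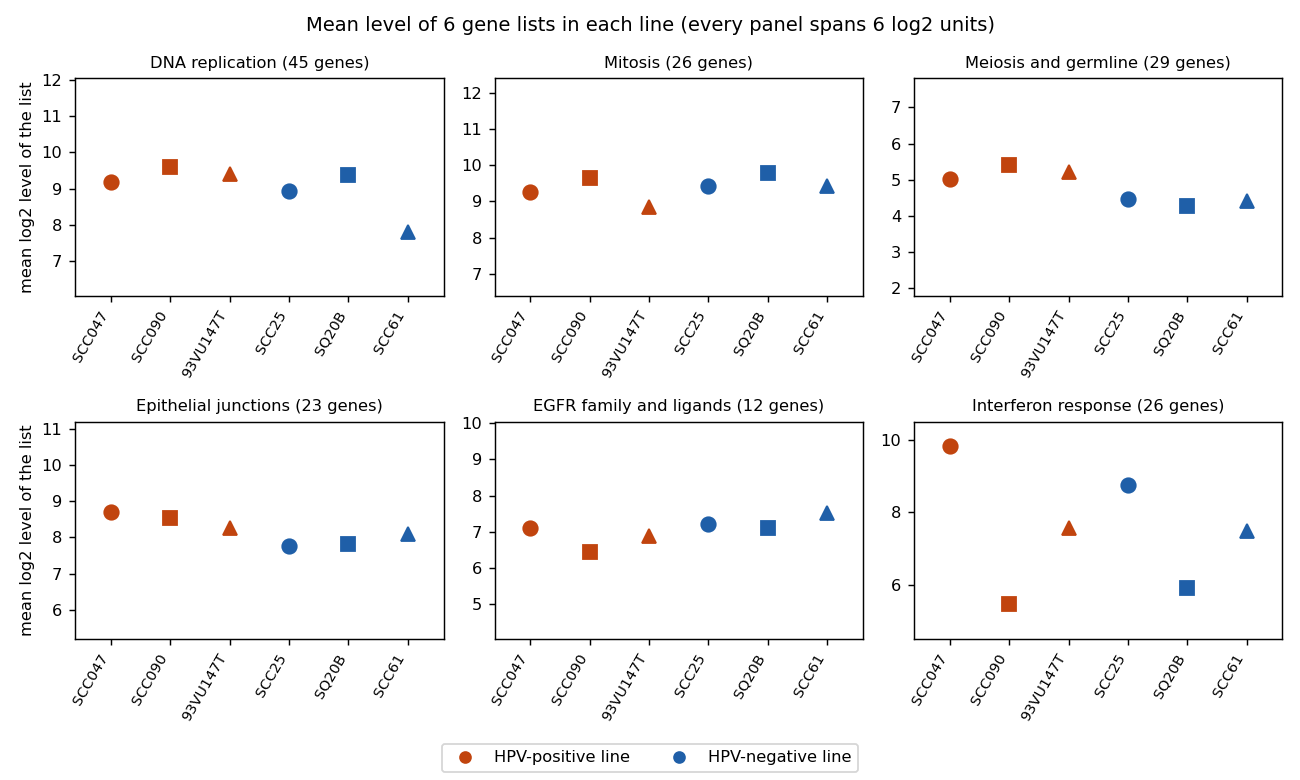
Mean log2 level over the genes of 6 lists (y axis, every panel spanning the same range) in each line (x axis), with HPV-positive lines (orange) left of HPV-negative lines (blue). The meiosis and junction lists did not overlap between the groups, SCC61 was the low line of the replication list, and the interferon list varied as widely within each group as across them.

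Immune pathways varied strongly between lines without separating the groups. None of 26 interferon response genes, 15 genes of MHC class I presentation, 12 genes of the NF-kB pathway or 21 NRF2 targets lay apart, while 14.4% of all genes did. The interferon list averaged 9.83, 5.47 and 7.56 in HPV-positive lines and 8.76, 5.92 and 7.50 in HPV-negative lines. MX1, an interferon-induced antiviral GTPase, was 11.73, 4.65 and 9.04 in the HPV-positive lines, against 4.33, 4.82 and 7.46 in the HPV-negative lines. IFIT3, another interferon-induced gene, was 11.30, 3.49 and 7.11 in the HPV-positive lines, against 10.86, 7.81 and 9.47 in the HPV-negative lines. SCC047 was the highest and SCC090 the lowest of the 6 lines over the list. SCC090 was also the lowest line for the 2 genes of MHC class I presentation with the largest differences. PSMB9, an immunoproteasome subunit, was 11.24, 4.40 and 9.91 in the HPV-positive lines, against 9.90, 8.13 and 10.46 in the HPV-negative lines. TAP2, of the peptide transporter, was 8.20, 5.46 and 8.53 in the HPV-positive lines, against 9.03, 8.34 and 9.10 in the HPV-negative lines. AKR1C2 and AKR1C3, oxidoreductases that NRF2 controls, had differences of 2.11 and 2.06 with SEs of 1.42 and 1.98. BIRC2 and IKBKB of the NF-kB pathway had differences of -0.98 and 1.14. Of 21 inflammatory cytokines 2 were lower. CCL20, a chemokine for CCR6-bearing cells, was 4.25, 3.93 and 5.51 in the HPV-positive lines, against 6.51, 7.09 and 7.15 in the HPV-negative lines, and the other was IL24. The DNA sensor IFI16 was higher (10.88, 10.48 and 10.66 in the HPV-positive lines, against 10.08, 10.37 and 9.71 in the HPV-negative lines) and was the one gene of 11 sensors to lie apart.

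Among chromatin regulators, 6 of 21 were higher and none lower (all genes, 7.81% and 6.56%), with a median of 0.50. It was 0.23 without SCC61 and 0.81 without SCC25. CBX7, a Polycomb subunit, was 7.25, 6.96 and 6.78 in the HPV-positive lines, against 6.04, 5.04 and 6.07 in the HPV-negative lines. DNMT3A, a de novo DNA methyltransferase, was 7.62, 8.29 and 6.90 in the HPV-positive lines, against 6.20, 6.54 and 6.72 in the HPV-negative lines. KDM5B, a histone demethylase, was 9.12, 9.20 and 9.14 in the HPV-positive lines, against 8.02, 6.88 and 9.08 in the HPV-negative lines. LMNB1, a nuclear lamin, had a difference of 0.98 and a gap of 0.08. APOBEC3B, a cytidine deaminase of antiviral defence, was 10.61, 9.23 and 10.04 in the HPV-positive lines, against 8.36, 8.82 and 8.96 in the HPV-negative lines, and was the one of 5 APOBEC3 genes that lay apart. In the Notch pathway 4 of 20 were higher (7.81% of all genes), with a median of 0.43, or 0.16 without SQ20B. NOTCH3, a receptor, was 7.31, 9.87 and 8.23 in the HPV-positive lines, against 6.13, 5.11 and 7.10 in the HPV-negative lines. DLL3, an inhibitory ligand, was 6.17, 5.64 and 6.32 in the HPV-positive lines, against 4.84, 4.39 and 4.36 in the HPV-negative lines. MAML1, a co-activator of Notch, and NOTCH4 had differences of 0.67 and 0.19. In the WNT pathway 3 of 22 were higher. LGR6, a receptor that enhances WNT signals, was 5.63, 5.55 and 5.33 in the HPV-positive lines, against 4.75, 4.57 and 4.52 in the HPV-negative lines. LEF1, a transcription factor of this pathway, was 4.33, 8.48 and 5.32 in the HPV-positive lines, against 4.05, 4.19 and 4.08 in the HPV-negative lines, with SCC090 far above all others. WNT10B, a ligand, had a difference of 0.30. Host partners of E6 and E7 gave 3 higher and 1 lower of 15. SCRIB, a polarity protein that E6 targets, was 9.34, 9.62 and 8.74 in the HPV-positive lines, against 8.36, 8.64 and 8.44 in the HPV-negative lines. PATJ, another polarity protein, had a difference of 0.84, which was negative with its second probe set. RBL2, a relative of RB, had one of 0.52, which was negative in treated arrays. PTPN14, a phosphatase that E7 targets, was lower, at 9.42, 9.05 and 9.60 in the HPV-positive lines, against 10.19, 9.64 and 10.60 in the HPV-negative lines. Of 23 genes of the p53 list, 1 lay apart. The list median of 0.15 ran from -0.017 without SCC090 to 0.33 without SQ20B. This gene, DDB2, a damage recognition factor, was 10.01, 8.76 and 8.91 in the HPV-positive lines, against 8.65, 7.48 and 7.87 in the HPV-negative lines. Of 24 repair genes, 2 were higher, which is near the share of all genes (7.81%). FANCG, of the Fanconi anaemia pathway, was 9.51, 9.31 and 10.21 in the HPV-positive lines, against 8.35, 8.70 and 7.52 in the HPV-negative lines, and XRCC1 had a difference of 0.60. HOXB6 was the one of 28 HOX genes that lay apart, at 4.37, 3.92 and 4.01 in the HPV-positive lines, against 5.12, 6.41 and 5.41 in the HPV-negative lines. Among 21 retinoid and xenobiotic enzymes, 3 were higher (CYP2S1, ALDH3B2 and ALDH1A2, differences 1.23, 0.80 and 0.64) and 2 lower, DHRS9 (-1.13) and GSTT1. GSTT1, a glutathione transferase, was 4.58, 4.54 and 5.47 in the HPV-positive lines, against 7.29, 6.57 and 7.40 in the HPV-negative lines. SKIL, a repressor of SMAD signalling on chromosome 3, was 9.35, 9.12 and 9.13 in the HPV-positive lines, against 7.88, 7.03 and 8.43 in the HPV-negative lines, and was the one of 9 genes of a region often amplified in squamous tumours that lay apart. None of 10 genes of the CCND1 region on chromosome 11 did. SHANK2, in this region, was 4.72, 5.53 and 4.03 in the HPV-positive lines, against 8.95, 4.27 and 4.64 in the HPV-negative lines.

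**Figure D4:**
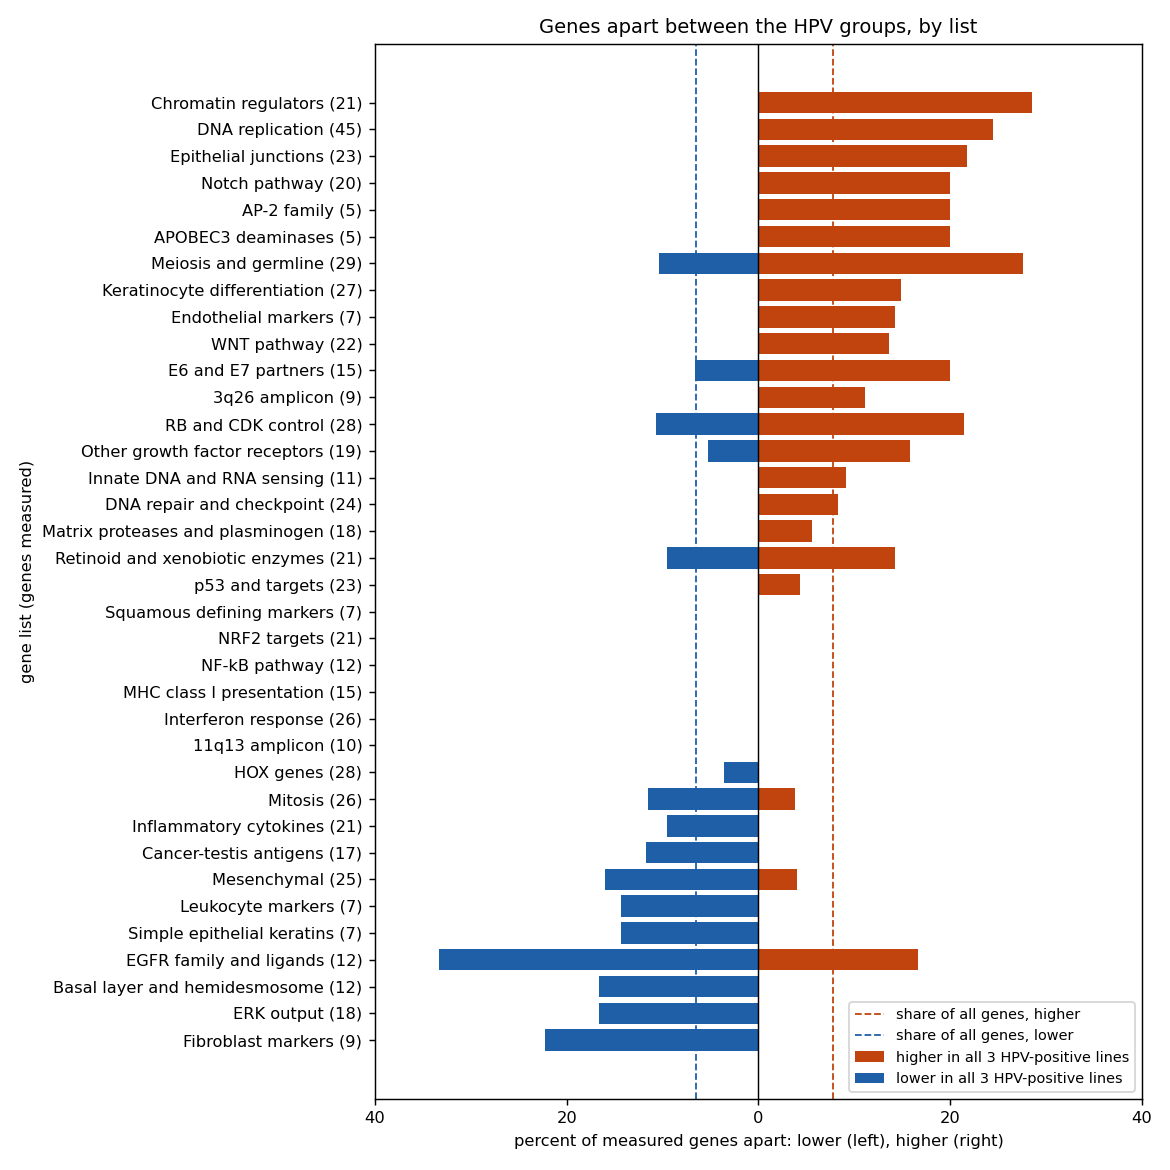
Percent of measured genes that lay apart in each of 36 lists, with genes higher in all 3 HPV-positive lines to the right (orange) and lower ones to the left (blue), and dashed lines at the shares of all genes, 7.81% and 6.56%. Lists of 5 to 12 genes move by large steps, and the chromatin, replication and meiosis lists reach furthest to the right.

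Apart genes were unevenly spread over the chromosomes. Genes higher in all HPV-positive lines made up 13.1% of 1320 genes on chromosome 19, 12.3% of 1126 on chromosome 17 and 11.5% of 1926 on chromosome 1, against 4.24% of 401 on chromosome 13 and 4.29% of 793 on chromosome 4. Genes lower in them made up 11% of 1035 on chromosome 12 and 10.5% on chromosomes 2 and 4, against 2.49% on chromosome 17. These shares are descriptions, and genes next to each other are not independent. The promoters of the genes differed in base composition along with this. In the third of genes with the lowest promoter GC content (up to 57.7%), 5.28% were higher and 7.77% lower, and in the third with the highest (from 67.1%) 9.4% were higher and 6.11% lower. The part of GC content in these counts was not tested. By line means, the 3′ minus 5′ signal of the ACTB control probe sets, a measure of RNA integrity, also lay apart. It was 0.289 to 0.354 log2 units in HPV-positive lines and 0.256 to 0.275 in HPV-negative lines. Single arrays overlapped, at 0.241 to 0.459 in HPV-positive lines and 0.15 to 0.392 in HPV-negative lines. The GAPDH signal overlapped by line means too, at 0.0416 to 0.139 in HPV-positive lines and 0.0566 to 0.0891 in HPV-negative lines. The part of RNA integrity was not tested either.

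**Figure D5:**
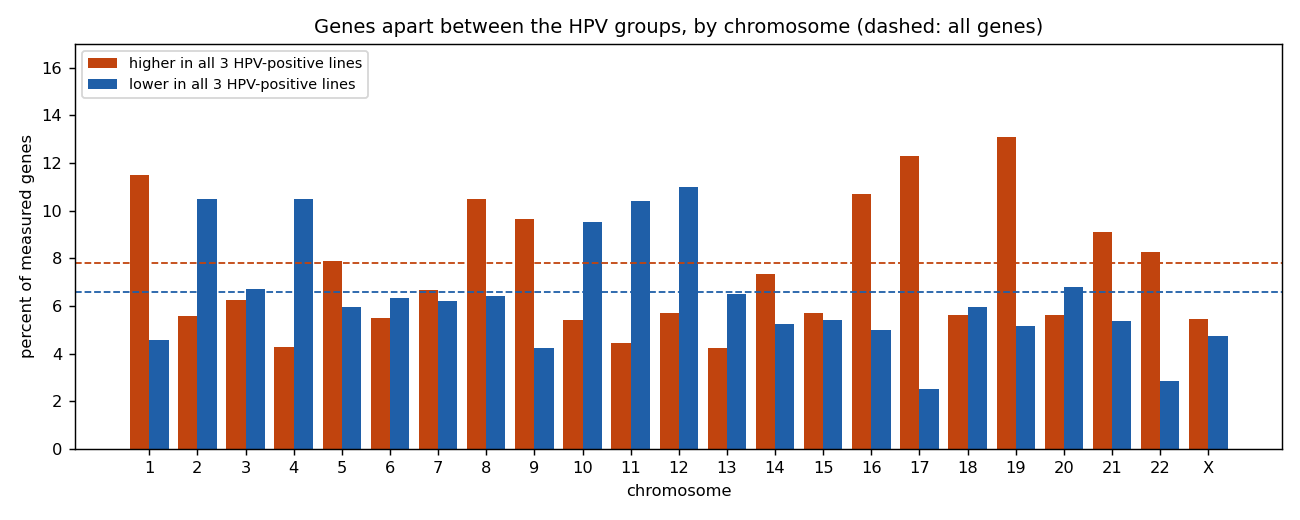
Percent of measured genes on each chromosome (x axis) that were higher (orange) or lower (blue) in all 3 HPV-positive lines, with dashed lines at the shares of all genes. Chromosomes 19, 17 and 1 have the tallest orange bars (13.1%, 12.3% and 11.5%), and chromosomes 12, 2 and 4 the tallest blue ones (11%, 10.5% and 10.5%).

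Within chromosomes, apart genes clustered in stretches of neighbours. In windows of 50 consecutive measured genes the median was 3 higher and 3 lower, and the windows with the highest counts, chosen after their values were seen, are described here with no test. On chromosome 11, 17 of 50 genes between DCUN1D5 and FDXACB1 were lower and 2 higher, with a median difference of -0.43 over the window. CASP1, the protease of the inflammasome, was 8.75, 7.86 and 7.90 in the HPV-positive lines, against 9.89, 9.86 and 10.30 in the HPV-negative lines. RDX, which ties actin to the membrane, was 9.09, 9.18 and 8.23 in the HPV-positive lines, against 10.39, 10.53 and 11.08 in the HPV-negative lines. CASP4, ACAT1 and SIK2 in this stretch had differences of -1.33, -1.55 and -1.13. On chromosome 1, 16 of 50 between RPAP2 and OLFM3 were lower and none higher, with a median of -0.69. BCAR3, an adaptor of integrin signalling, had a difference of -2.76. EVI5, TMED5, DR1, RTCA and SLC35A3 in the same stretch had differences of -1.85, -1.53, -1.36, -1.63 and -1.05. On chromosome 2, 18 of 50 between DNPEP and SP100 were lower and 4 higher, with DNER, CCL20 and SP140L (-2.35) among the lower and a window median of -0.20. Chromosome 12 had 15 lower between TSPAN8 and CEP290, PHLDA1 among them, and chromosome 4 had 14 between ZNF330 and TMEM131L.

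Other windows held many higher genes. At the end of chromosome 8, between GFUS and ZNF250, 23 of 50 genes were higher and 2 lower, with a median of 0.58. SCRIB was one of them, and PLEC one of the 2 lower genes. RECQL4, a DNA helicase, was 7.94, 8.33 and 8.15 in the HPV-positive lines, against 7.45, 7.38 and 7.21 in the HPV-negative lines. COMMD5 was 7.48, 7.77 and 7.44 in the HPV-positive lines, against 6.73, 6.12 and 6.29 in the HPV-negative lines. On chromosome 1, 22 of 50 between CHTOP and MTX1 were higher, with the widest gaps among them for PBXIP1 and SLC27A3. PBXIP1 was 7.98, 8.41 and 8.10 in the HPV-positive lines, against 7.04, 6.07 and 7.13 in the HPV-negative lines, and SLC27A3 had a difference of 1.73. On chromosome 16, 21 of 50 between INO80E and PRSS36 were higher, with differences between 0.17 for PRSS36 and 1.45 for YPEL3, MAPK3, the kinase ERK1, at 0.51 among them. Chromosome 5 had 17 between RGS14 and LINC00847, chromosome 19 had 16 between KCNJ14 and PRR12, and chromosome 17 had 15 between NAGS and MAPT. DNA copy number was not measured here.

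Zinc finger genes on chromosome 19 ran against the rest of that chromosome. Of 234 genes named ZNF there, 9 were higher (3.85%) and 30 lower (12.8%), while of 1086 other genes of chromosome 19, 164 were higher (15.1%) and 38 lower (3.5%). ZNF genes on other chromosomes gave 34 higher and 10 lower of 268. A window between NLRP9 and ZNF154 held 14 lower and no higher genes, with a median difference of -0.13 over the window. Several of the 14 had small differences near the floor in every line, such as NLRP11 (-0.26), ZNF471 (-0.15) and ZNF547 (-0.20). ZNF256 was 3.58, 3.53 and 3.57 in the HPV-positive lines, against 6.07, 5.51 and 6.69 in the HPV-negative lines, so all HPV-positive lines were at the floor. ZNF585A was 4.44, 4.03 and 4.44 in the HPV-positive lines, against 7.33, 7.04 and 7.96 in the HPV-negative lines. ZNF134 (-2.04), ZNF551 (-1.54) and ZNF71 (-1.14) had gaps of 0.54, 0.38 and 0.78. Most of these genes encode KRAB repressors whose sequences are alike, so probe sets may not tell close relatives apart.

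The same lines were measured again after 100 nM cetuximab for 24 hours, in arrays that the selection of genes did not use. These are not new lines. In the treated arrays 1605 genes were higher in all HPV-positive lines (8.12%) and 1122 lower (5.67%). Of the 1544 genes higher in control arrays, 597 (38.7%) were also higher in treated arrays, and of the 1298 lower genes 434 (33.4%) were also lower. With a gap of at least 0.5 in control arrays the shares were 176 of 245 (71.8%) and 115 of 140 (82.1%). TCAM1P, SYCP2, GATM, DNER, TFPI and BEX5 kept treated gaps of 3.83, 3.22, 2.67, 3.19, 3.57 and 3.53, and CDKN2A one of 1.07. Of the 40 genes with the widest gap, 36 also lay apart in treated arrays, and SYNGR3, SLC40A1, NT5E and DDX60L overlapped there, with treated differences of 1.72, 1.19, -3.02 and -2.02. Of the 11 apart replication genes 6 were apart in treated arrays too, where 17 of the 45 lay apart as higher. Of the 3 apart ERK reporters 1 was. In the meiosis list 7 of the 8 higher genes stayed apart and 0 of the 3 lower ones. In the mitosis list 0 of the 3 lower genes and 0 of the 1 higher gene stayed apart. The EGFR family kept 0 of 2 higher and 3 of 4 lower genes. Epithelial junctions kept 2 of 5 higher genes and chromatin regulators 2 of 6. Whether the HPV difference shifted with cetuximab was tested on the 6 line changes, and limma called no gene after adjustment (0%), while 1872 genes (9.47%) had an unadjusted p under 0.05.

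The arrays of untreated HaCaT keratinocytes, an immortalised line without HPV, and of cetuximab-treated SCC1, another HPV-negative carcinoma line, were not part of the comparison. Both lie outside the main technical batch, SCC1 in the batch of SQ20B control replicate 3. TCAM1P was 3.22 in HaCaT and 3.31 in treated SCC1, and SYCP2 was 3.52 in HaCaT and 3.10 in treated SCC1, which is the floor seen in the other HPV-negative lines. CDKN2A was 9.21 in HaCaT and 8.58 in treated SCC1, within the range of the untreated HPV-negative lines. DNER was 3.40 in HaCaT, at the level of the HPV-positive lines, and 6.57 in treated SCC1. TFPI was 3.60 in HaCaT and 8.53 in treated SCC1.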

How the data were processed

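The authors measured RNA in triplicate on Affymetrix hgu133plus2.0 arrays in 3 technical batches and deposited log2 expression for each probe set after fRMA 1.16.0, which corrects background, quantile normalizes to frozen reference vectors and summarises probes robustly. A pSVA batch correction is named in the methods too, and it is unknown whether it was applied to these values. Of the 18 control arrays compared, all lie in the main batch except SQ20B control replicate 3. No source says that replicates are separate cultures. Array medians ran from 5.11 to 5.15, and the number of lines limits the precision.

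Values were used as deposited. Of 54675 probe sets, 62 are array controls. The platform annotation used gives 1 symbol for 41091 and more than 1 for 1801, and 11721 are not listed in it. The gene identifier matched RefSeq for 41037 and did not for 54. This left 19775 genes, 10523 of them with more than 1 probe set, and the brightest over 42 arrays was kept. Withheld items are not reported.

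Line means of 3 HPV-positive and 3 HPV-negative lines were compared in limma 3.58.1 under R 4.3.3 (lmFit, eBayes, Benjamini-Hochberg over all genes, threshold 0.05), with an exact permutation test for CDKN2A (scipy 1.17.1). On data simulated for this comparison over 19775 genes, with changed genes drawn from those of below-median spread, limma called 33 of 50 genes changed by 1 log2 unit and all 50 changed by 2, with 18 false calls. The members, the 36 gene lists and the tests were chosen with earlier results of these data known. Genes are named by rule: the 20 with the widest gap in each direction, up to 4 apart members per list and direction (or the 2 with the largest difference where none lay apart), and CDKN2A, RB1, CCND1, EGFR and TFAP2A. Genes of the chromosome windows, the remaining apart replication and meiosis genes, E2F1 and PCNA were named after their values were seen. Y-linked genes and XIST are left out. Promoter and microRNA sequences are from RefSeq (GRCh38.p14), and 15384 of the genes had a promoter listed. Alternatives were other probe set rules, a filter on dim genes, centring, quantile normalization, other limma fits, left-out replicates and lines, and treated arrays.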

Additional observations from a re-analysis of the deposited data

Results flagged for a closer look

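Among the 40 genes with the widest gap, the 2 lines outside the comparison were placed against the midpoint of the gap. Untreated HaCaT keratinocytes lay on the HPV-positive side for 19 of 40, although they carry no HPV. Among all higher genes with a gap of at least 0.5, HaCaT lay below all HPV-positive lines for 178 of 245 (72.7%, all genes 28%). For the lower genes with such a gap it lay above all HPV-positive lines for 84 of 140 (60%, all genes 20.8%). Of the 19 genes, those below the midpoint in HaCaT were DNER (3.40), TFPI (3.60), LY96 (3.25), MAP3K7CL (3.46), KHDC1L (3.68), ZNF256 (4.32), MIR100HG (4.56), HBE1 (4.63), AOX1 (5.04), TFCP2L1 (5.20), DDX60L (6.18), NT5E (6.85), FKBP5 (6.94), DUSP1 (7.89) and MYADM (8.62). Those above it were EDIL3 (10.56), MRC2 (9.39), DPYSL3 (6.89) and SYNGR3 (6.62). Some HaCaT values lay between the groups. The highest HPV-positive array was 7.94 for MYADM, and the lowest was 7.68 for DPYSL3. All 3 genes called by limma on line means are among the 19 genes. Cetuximab-treated SCC1 was placed in the same way against the treated arrays, for the 36 genes that were apart there too, and lay on the HPV-positive side for 12. It was above the midpoint for RBP7 (8.74), GPR160 (7.72) and DLX6 (6.11) and below it for ZNF256 (3.36), LY96 (3.54), MIR100HG (3.56), LINC00662 (4.09), HBE1 (4.75), AOX1 (5.36), TFCP2L1 (5.80), MYADM (7.51) and CDK6 (8.66). HaCaT and SCC1 lie outside the main technical batch, which holds all control arrays of the 6 lines except SQ20B control replicate 3. That array shares the batch of SCC1, and the part of the batch was not tested.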

How the results depend on the processing

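The count of apart genes depended on the lines and on how separation was defined. Leaving out a replicate or array gave 1475 to 1643 higher and 1228 to 1311 lower genes. Leaving out 1 line, which loosens the rule by its construction, gave 2257 to 3612 higher and 2007 to 2434 lower genes. The highest count for higher genes came without SCC090 (3612) and for lower genes without 93VU147T (2434). The others were 2444 and 2310 without SCC047, 2388 lower without SCC090, 2605 and 2316 without SCC25, 2410 and 2007 without SQ20B, and 2325 and 2142 without SCC61. A gap of at least 0.5 left 245 higher and 140 lower, and the separation of all 9 arrays left 636 and 335. A filter that kept genes with a mean of at least 5.5 left 728 lower genes. Centring each array on its median gave 1396 higher and 1547 lower genes, so which direction held more genes turned with the scaling.

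The limma counts of 1 higher and 2 lower were 0 and 1 with the mean of all probe sets and with the second brightest probe set, 0 higher with the dim filter, 1 lower without probe sets of the _x_at and _s_at kinds, and 3 and 4 in treated arrays. They were 10 and 5 without SCC047, 0 and 0 without SCC090, 93VU147T or SQ20B, and 0 and 1 without SCC61. On 18 arrays with the line as a random block they were 564 and 335, with the replicate block added 452 and 264, and with arrays as replicates, which takes arrays of a line as independent, 6096 and 5019. Samples of the same replicate number did not deviate together (median correlation -0.02, 45 pairs of arrays), so the numbers do not pair the samples. CDKN2A kept its direction under all 20 alternatives (differences 2.53 to 5.15, limma adjusted p 0.000833 to 0.722). Its adjusted p was low with the line as a random block (difference 3.96, limma adjusted p = 0.000833, and 0.00207 with the replicate block). Those fits use a common correlation of arrays within a line for all genes (0.83). They let arrays add to the precision although HPV status varies only between lines, so the test on line means remains the main one.

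Among the other named genes that lay apart, 13 turned under another setting. With the second brightest probe set they were CCNE1 (-0.11), ISYNA1 (-0.069), PATJ (-0.12), ZFR2 (-0.039), ITGAM (0.078) and ZEB2 (-0.011), which was also -0.011 with the brightest over control arrays and -0.072 with the mean of all probe sets. Without the _x_at and _s_at kinds CDC25C was -0.11 and ISYNA1 -0.17. In treated arrays CRNN (-0.056), RBL2 (-0.28), TFAP2B (-0.0047), ZEB2 (-0.11), ITGAM (0.062), SPRY4 (0.018), THY1 (0.27) and ZEB1 (0.0089) turned. The causes were not tested.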
